A study of Mus musculus with 7 samples.

Results

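The genes described are 8 markers of Schwann cells and of the neural crest glia they come from: Sox10, Erbb3, Ngfr, Cdh19, Fabp7, S100b, Gfap and Mbp. They were chosen by name, as every probe whose gene name on the array is 1 of these 8, which gave 12 of 55670 probes and 8 of 34792 gene names. Total RNA of 7 mouse samples, 250 ng each, was labelled with Cy3 and hybridised to single-colour Agilent 60-base oligonucleotide arrays, all 7 on 1 slide. The cultured samples were cardiac mesenchymal progenitors (CMPs), adherent stromal cells grown from adult C57BL/6 heart on collagen I in DMEM/F12 medium that held 40 ng/ml bFGF, a fibroblast growth factor, and 10% FBS. Postmortem CMPs (2 arrays, 1 atrial and 1 ventricular) came from heart tissue kept for 24 h at 4 °C, and living CMPs (2 arrays, 1 atrial and 1 ventricular) from living tissue. The positive controls were purchased RNA of adult mouse heart (1 array, strain not given in the labels) and RNA of C57BL/6 fetal heart of embryonic day 16.5 (2 arrays). Of the fetal arrays 1 was wild type and 1 came from the line C57BL/6-Tg(Myh6-EGFP)MG2, named for a green fluorescent protein transgene driven by Myh6, the alpha myosin heavy chain gene of heart muscle. The labels do not give the ages of the adult animals, or whether RNA of several animals or litters was pooled.

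Schwann cells wrap the axons of peripheral nerves, and in the heart they accompany the autonomic nerves that enter along the vessels. They descend from neural crest cells, which carry the transcription factor Sox10 and the low-affinity neurotrophin receptor Ngfr. Neuregulin 1 from the axon acts on Schwann cell precursors through the receptor pair Erbb3 and Erbb2. Precursors carry Cdh19 and Fabp7, immature Schwann cells add S100b and Gfap, and myelinating cells make myelin basic protein, Mbp. Several of these genes are also used outside glia: S100b in cartilage and fat, Ngfr in mesenchymal cells, and the Mbp locus in haematopoietic cells through its Golli transcripts.

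The values rest on these probes, of which the first 30 of 60 bases are given for 5 genes on which the results turn. They are written 5′ to 3′ as the scanner tables give them, with no capitals, since the whole oligonucleotide is what was measured.
Sox10: tacagtctacctttgccttgcaccctttgc
Ngfr: tccagctggcgactatgagatccagacctc
Cdh19: ctgtgcagagatcaatttttaacaacaagg
Fabp7: tgaagcactggtcactaattataagtttgt
S100b: gaagctggacttgaggctttctaacttgca
On mouse build mm9 the Sox10 probe lies at positions 78985518 to 78985577 of chromosome 15 and the Ngfr probe at 95430211 to 95430270 of chromosome 11, both on the minus strand. The Cdh19 probe lies at 112785846 to 112785905 of chromosome 1, minus strand. The Fabp7 probe lies at 57508039 to 57508098 and the S100b probe at 75723783 to 75723842 of chromosome 10, both on the plus strand. In their transcripts the probes begin at base 2478 (Sox10), 3270 (Ngfr), 2920 (Cdh19), 544 (Fabp7) and 1379 (S100b), per the deposited tables. None of the 12 probes shared a stretch of 20 bases, on either strand, with any other probe of the array. The Ngfr probe was printed 10 times on each array and every other member probe once.

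A level here is the log2 processed signal minus the 75th percentile of that array. Apart from marker sums, the mean of the Mbp probes and the nearest profiles, levels are compared between arrays for 1 probe, not between probes. A probe counts as measured on an array when the scanner software flagged it well above background. Between 46.5% and 52.5% of all probes did so on an array. The stromal genes Col1a1, Pdgfra and Dcn were well above background on all 7 arrays. Col1a1 and Pdgfra were higher on every CMP array than in every heart. Dcn was not: it stood at 6.52 to 8.29 in CMPs and at 8.50 in adult heart. Cardiac muscle myosin Myh6 stood at -5.40 to -4.64 in CMPs and at 8.56 to 10.37 in the hearts. The troponin gene Tnnt2, named after its values were seen, was well above background on all 7 arrays, at 0.11 to 4.10 in CMPs and 8.18 to 9.95 in the hearts. Of 8 heart muscle markers 1 to 4 were well above background on a CMP array, and 8 on each heart array. In bulk RNA, fewer cells of a type and less RNA per cell cannot be told apart.

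The 8 genes did not behave as 1 group. Sox10 and S100b were well above background on all 7 arrays, Fabp7, Ngfr and Mbp on 6, Cdh19 on 3 and Erbb3 and Gfap on none. The array that Fabp7, Ngfr and Mbp lacked was in each case the postmortem atrial one, where 2 of the 8 genes were measured. On each of the other 3 CMP arrays 6 of the 8 were, and on each heart array 5. Over all probes the postmortem atrial array was not dim: 47.5% of its probes were well above background, against 47.1% on the living ventricular array.

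**Figure D1:**
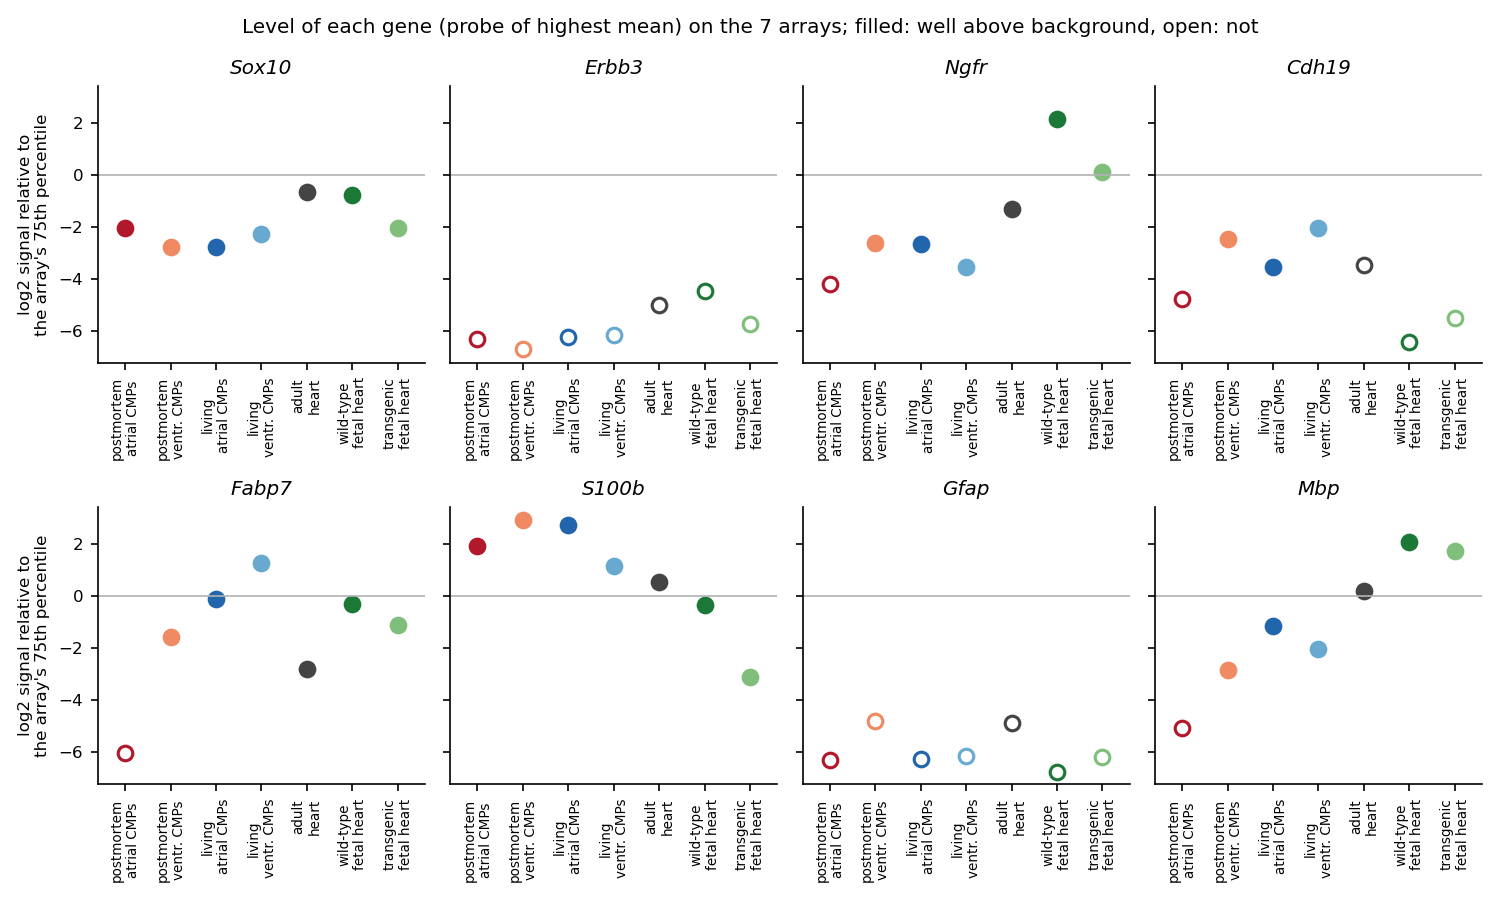
Level of each of the 8 genes on the 7 arrays, with 1 point per array (y axis: log2 signal relative to the array's 75th percentile; filled points are well above background, open points are not). Fabp7 spans 7.32 log2 units among the 4 CMP arrays, from -6.02 to 1.30, while Sox10 spans 0.74.

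Sox10, the transcription factor that specifies glia from the neural crest and is required through Schwann cell life, was measured on every array. Its level was -2.04 in postmortem atrial, -2.78 in postmortem ventricular, -2.77 in living atrial and -2.29 in living ventricular CMPs, -0.65 in adult heart, -0.77 in wild-type fetal heart and -2.05 in transgenic fetal heart. The 4 CMP arrays lay close together, below the adult heart and below the wild-type fetal heart, and the transgenic fetal heart lay just under the highest CMP array. CMPs averaged -2.47 ± 0.37 (SD, n = 4). The difference from adult heart was -1.82 ± 0.62 (SE, 4 arrays against 1; limma adjusted p = 0.0566) and that from fetal heart -1.06 ± 0.48 (adjusted p = 0.126), so neither passed the threshold of 0.05. With normexp background correction or a stricter filter on dim probes the difference from adult heart did pass (limma adjusted p = 0.0364 and 0.0497), as it did with any 1 culture or fetal array left out.

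Erbb3, the neuregulin receptor of the Schwann cell lineage, stayed dim on all 7 arrays, none of them well above background, with levels from -6.70 in postmortem ventricular CMPs to -4.48 in wild-type fetal heart. By a looser criterion, a signal over the 95th percentile of the negative control spots, it was detected on both fetal arrays and on no CMP array.

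Ngfr, the p75 receptor that binds all neurotrophins, was low in the cultures and highest in fetal heart. Its level was -4.22 in postmortem atrial, -2.61 in postmortem ventricular, -2.68 in living atrial and -3.55 in living ventricular CMPs, -1.33 in adult heart, 2.17 in wild-type fetal heart and 0.13 in transgenic fetal heart. All 4 CMP arrays lay below all 3 hearts, and the adult heart below both fetal hearts. Ngfr fell by 4.41 ± 0.75 from fetal heart to CMPs on the log2 scale (SE, 4 arrays against 2; limma adjusted p = 0.00572), and was well above background on 3 of the 4 CMP arrays. The difference of CMPs from adult heart was -1.93 ± 0.96 (adjusted p = 0.149) and that of adult from fetal heart -2.48 ± 1.05 (adjusted p = 0.117).

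The repeated spots of Ngfr give the technical error of a level within an array. The SD over spots without an outlier flag was 0.05 on the wild-type fetal and 0.06 on the transgenic fetal array, 0.09 on adult heart, 0.12 on both postmortem ventricular and living atrial CMPs, 0.27 on living ventricular and 0.35 on postmortem atrial CMPs. The spread between spots was thus greatest on the 2 arrays where Ngfr was dimmest. The transgenic minus the wild-type fetal level was -2.04, far beyond the spread of their spots, which measures the hybridisation and scan of 1 RNA and not the difference between animals. Of the 70 Ngfr spots 6 carried an outlier flag and were left out, 3 of them on the postmortem atrial array, where 1 of the 7 other spots was well above background.

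**Figure D2:**
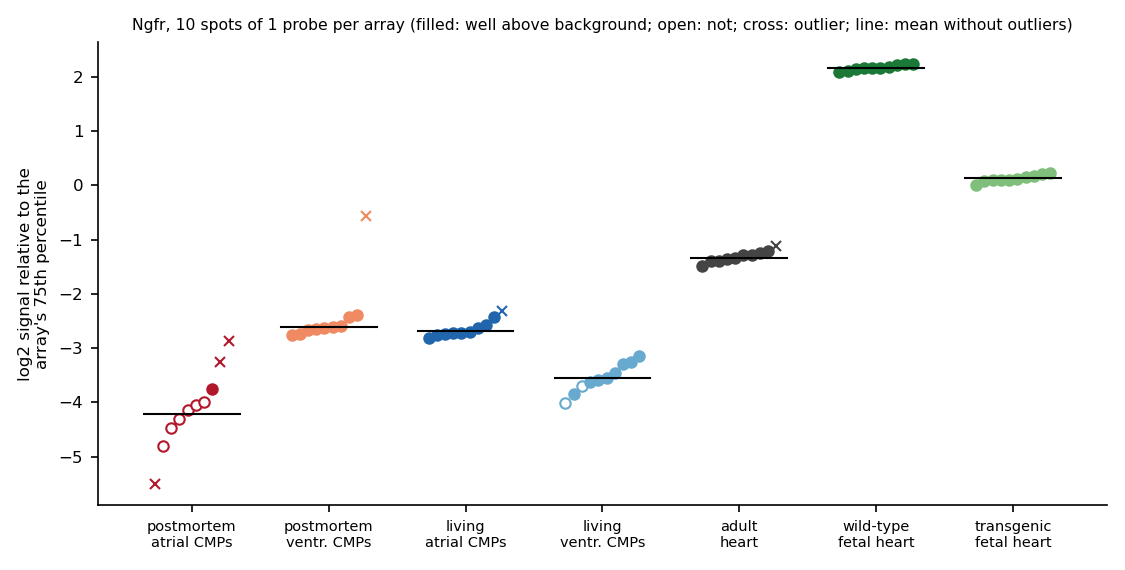
The 10 Ngfr spots of each array (y axis: log2 signal relative to the array's 75th percentile; filled points are well above background, open points are not, crosses are outlier spots and lines are means without them). The spots of the 2 fetal arrays, with SDs of 0.05 and 0.06, do not meet, and those of postmortem atrial CMPs scatter with an SD of 0.35.

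Cdh19, a cadherin of Schwann cell precursors, was measured only in cultures. Its level was -2.46 in postmortem ventricular, -3.53 in living atrial and -2.06 in living ventricular CMPs, all well above background. It was not well above background in postmortem atrial CMPs (-4.79), adult heart (-3.48), wild-type fetal heart (-6.46) or transgenic fetal heart (-5.51). Both ventricular cultures were above both atrial ones. The signals of all 4 CMP arrays lay above those of both fetal hearts, and the adult heart lay above both atrial cultures. Since 1 CMP array and all hearts were dim, Cdh19 did not enter the tests against the hearts, and no fold is given. By the looser criterion it was detected in postmortem atrial CMPs, adult heart and transgenic fetal heart as well.

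Fabp7, the brain-type fatty acid binding protein of radial glia and Schwann cell precursors, varied most among the cultures. Its level was -6.02 in postmortem atrial, -1.58 in postmortem ventricular, -0.10 in living atrial and 1.30 in living ventricular CMPs, -2.80 in adult heart, -0.31 in wild-type fetal heart and -1.11 in transgenic fetal heart. Both postmortem cultures were below both living cultures, and within each state the atrial culture was below the ventricular one. Both living cultures were above both fetal hearts, and both postmortem cultures below them. The postmortem atrial array, the lowest of the 7, was the one array without a signal well above background. CMPs averaged -1.60 ± 3.17 (SD, n = 4), a spread larger than the difference from fetal heart (-0.89 ± 0.65 SE; limma adjusted p = 0.311) or from adult heart (1.20 ± 0.84; adjusted p = 0.278). Without the postmortem atrial or the living ventricular array the difference from adult heart was 1.96 and that from fetal heart -0.13, and without either of the other CMP arrays 0.44 and -1.65.

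S100b, a calcium-binding protein of Schwann cells and astrocytes that cartilage and fat cells also make, was the one member whose 4 culture arrays all lay above all 3 hearts. Its level was 1.93 in postmortem atrial, 2.94 in postmortem ventricular, 2.75 in living atrial and 1.17 in living ventricular CMPs, 0.54 in adult heart, -0.34 in wild-type fetal heart and -3.12 in transgenic fetal heart. S100b rose by 3.93 ± 0.89 from fetal heart to CMPs (SE, 4 arrays against 2; limma adjusted p = 0.0155), a 15.2-fold difference of the means. The difference from adult heart was 1.66 ± 1.14 (adjusted p = 0.272). Without the transgenic fetal array the difference from fetal heart was 2.53 and no longer passed (adjusted p = 0.0727).

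Gfap, an intermediate filament of astrocytes and of non-myelinating Schwann cells, had 3 probes, none of them well above background on any array. The levels of its brightest probe ran from -6.75 in wild-type fetal heart to -4.82 in postmortem ventricular CMPs. By the looser criterion each Gfap probe was detected on 1 array, the brightest in postmortem ventricular CMPs and the other two in wild-type fetal heart.

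Mbp, myelin basic protein, was also measured by 3 probes, and they did not give 1 picture. On the brightest, A_52_P604195, the level was -5.06 in postmortem atrial, -2.83 in postmortem ventricular, -1.14 in living atrial and -2.04 in living ventricular CMPs, 0.21 in adult heart, 2.08 in wild-type fetal heart and 1.75 in transgenic fetal heart. Every CMP array was below every heart array there. Mbp on this probe fell by 4.68 ± 0.63 from fetal heart to CMPs (SE, 4 arrays against 2; limma adjusted p = 0.00258) and by 2.98 ± 0.81 from adult heart to CMPs (4 arrays against 1; adjusted p = 0.0283). The second call was lost without the wild-type or the transgenic fetal array (adjusted p = 0.0721 and 0.072).

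The other two Mbp probes read other stretches of its transcripts. Probe A_55_P1992160 was well above background on the fetal arrays alone (-2.73 and -2.96) and at least 2.49-fold lower in CMPs (adjusted p = 0.00377 in the fit of single probes). Such a bound sets the brighter mean against the lowest signal that counts as well above background on the dim arrays, or their own signal where that is higher. Probe A_52_P329451, well above background on 6 arrays, ran from -4.60 in postmortem ventricular CMPs to -2.86 in adult heart, and the CMPs overlapped the fetal hearts. Its CMP mean differed by -0.45 from fetal heart (adjusted p = 0.457) and by -0.95 from adult heart (adjusted p = 0.23). With the mean of the 3 probes the Mbp difference was -2.72 from fetal and -1.92 from adult heart.

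**Figure D3:**
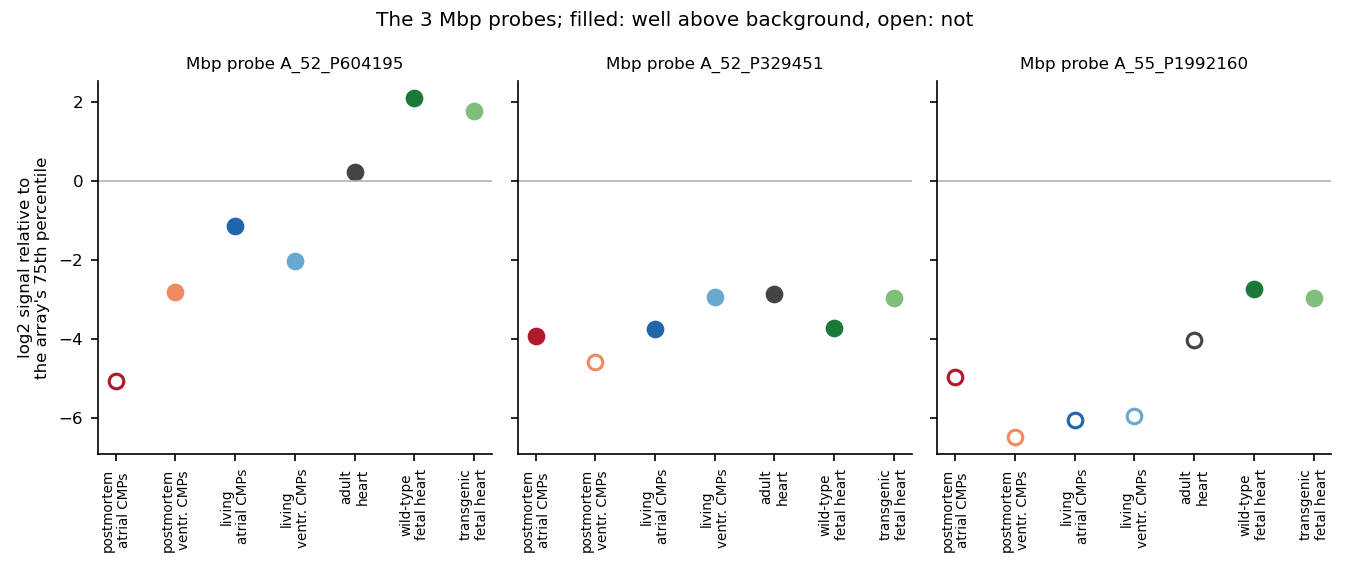
Levels of the 3 Mbp probes on the 7 arrays (y axis: log2 signal relative to the array's 75th percentile; filled points are well above background, open points are not). The left probe separates the CMPs, at -5.06 to -1.14, from the hearts, at 0.21 to 2.08, and on the middle probe the CMPs and hearts overlap.

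Counted over the 8 genes, 5 entered the test of CMPs against fetal heart, where S100b rose and Ngfr and Mbp fell. Among all 20052 genes tested 48% were called, 22.8% higher and 25.2% lower, so 3 calls among 5 tested genes lie near the background. Against adult heart 1 of 5 tested members was called, Mbp, where 49.3% of 20278 genes were, 24.6% higher and 24.6% lower. Between adult and fetal heart none of 5 was called in limma, where 37% of 20946 genes were (18.8% higher and 18.2% lower), and none of the 5 had an unadjusted p under 0.05. The median difference of the tested members was -1.06 against fetal heart, beside -0.01 over all genes tested, and -1.82 against adult heart, beside 0.00. With the array's 75th percentile taken over probes well above background on all arrays, the median of all genes shifted by -0.17 against fetal and by -0.16 against adult heart, and no tested member changed direction there. The fetal heart arrays serve both the CMP and the adult comparison, and the CMP arrays both hearts. All CMP arrays were in 1 column of the slide and all heart arrays in the other, so slide position and tissue cannot be told apart. Nothing in the labels says that arrays of a group are separate cultures or animals. The error of the fit came from 2 contrasts. These were the storage difference of 1 chamber against that of the other, and wild-type against transgenic fetal heart. The p-values set a difference against that spread, part of which may be technical, and not against a spread between replicates.

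The calls shifted when a culture was left out, since the spread then came from the 2 fetal hearts alone, with 1 residual degree of freedom. Without any 1 CMP array, Ngfr and S100b passed against adult heart, with differences of -2.55 to -1.31 and 1.01 to 2.31, and Ngfr, Fabp7, S100b and Mbp passed between adult and fetal heart. Sox10 passed against fetal heart (-1.37) without the postmortem atrial or the living ventricular array, and Fabp7 (-1.65) without the postmortem ventricular or the living atrial array. For storage and chamber the difference was then that of 1 pair of arrays, with no replicate, so only its size is given. For storage, without either atrial and without either ventricular array, Fabp7 differed by -2.88 and -5.93. S100b differed by 1.77 and -0.83 and Mbp by -0.78 and -3.92, in that order. For chamber, without either living and without either postmortem array, Fabp7 differed by 4.45 and 1.40. Mbp differed there by 2.24 and -0.90 and S100b by 1.01 and -1.58. The postmortem atrial signals of Fabp7 and Mbp were not well above background.

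**Figure D4:**
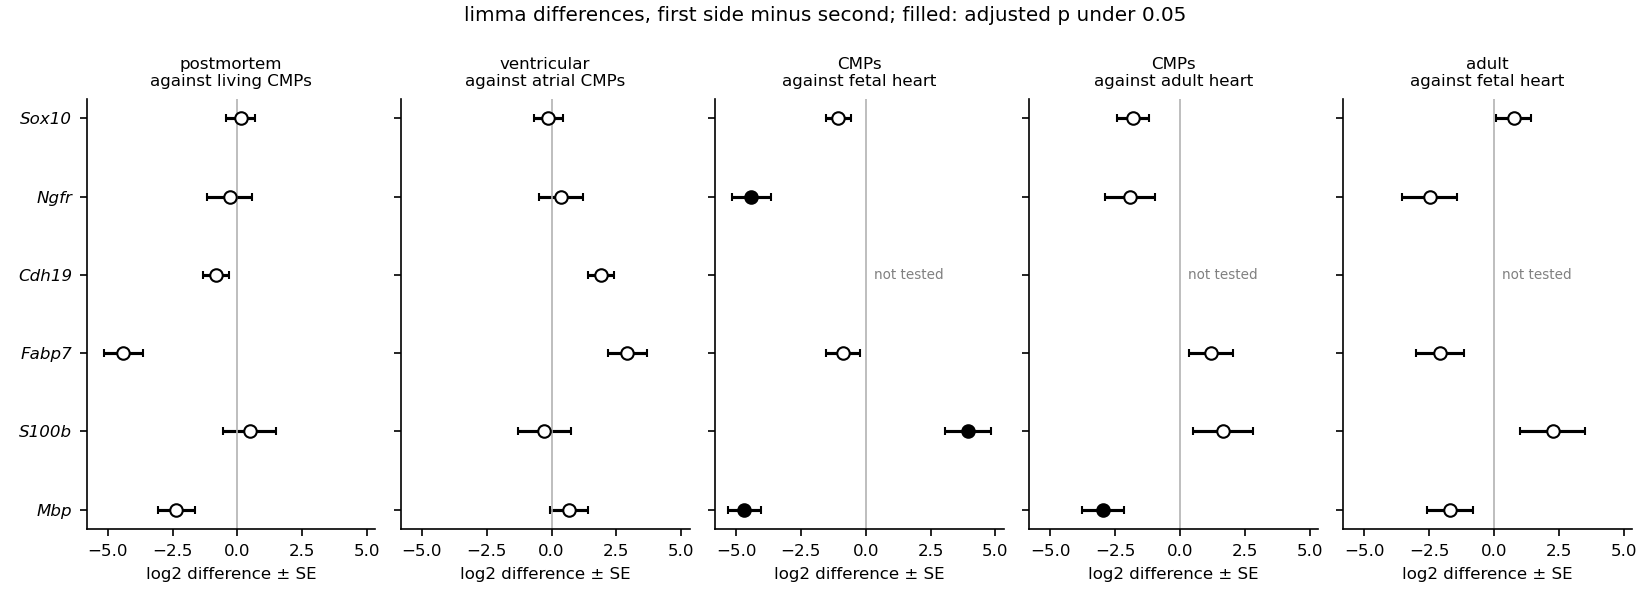
Differences from limma for the members that entered each of the 5 comparisons (x axis: log2 difference, first side minus second, with bars of 1 SE; filled points have an adjusted p under 0.05). The 4 filled points are Ngfr at -4.41, S100b at 3.93 and Mbp at -4.68 against fetal heart and Mbp at -2.98 against adult heart.

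The series' design text sets cultures from living tissue beside cultures from stored postmortem tissue. Of the 6 members tested between postmortem and living CMPs none was called in limma, where 0.105% of 19011 genes were (0.00526% higher and 0.0999% lower in postmortem cells). At an unadjusted p under 0.05 there were 2 members, Fabp7 and Mbp, and 2100 genes. Fabp7 differed by -4.40 ± 0.74 (SE, 2 arrays against 2; adjusted p = 0.198) with a signal well above background in the ventricular but not the atrial postmortem culture. With normexp, which shrinks dim signals, its difference was -2.44 and passed (adjusted p = 0.0266). Mbp differed by -2.35 ± 0.72 (adjusted p = 0.357), Cdh19 by -0.83 ± 0.50 (adjusted p = 0.612), S100b by 0.47 ± 1.02 (adjusted p = 0.92), Ngfr by -0.30 ± 0.86 (adjusted p = 0.944) and Sox10 by 0.12 ± 0.55 (adjusted p = 0.97).

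Within chambers the storage difference of Fabp7 had 1 direction. Postmortem atrial CMPs were at least 16.4-fold lower than living atrial CMPs (measured difference -5.93), and postmortem ventricular CMPs were 7.35-fold lower than living ventricular CMPs (difference -2.88). Mbp was at least 7.92-fold lower in the postmortem culture of the atrial pair, and differed by -0.78 in the ventricular pair. On probe A_52_P329451 the order was the other way round: the atrial pair, measured on both arrays, differed by -0.17, and the ventricular pair by -1.65, with the postmortem array not well above background. For scale, 12.1% of genes were at least 2-fold apart in the atrial pair and 5.08% in the ventricular pair. A single pair has no replicate, so these are values of those arrays. Sox10 (atrial pair 0.73, ventricular pair -0.49), Ngfr (-1.54 and 0.94) and S100b (-0.83 and 1.77) had opposite signs in the 2 pairs, and Cdh19 differed by -1.26 and -0.40.

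**Figure D5:**
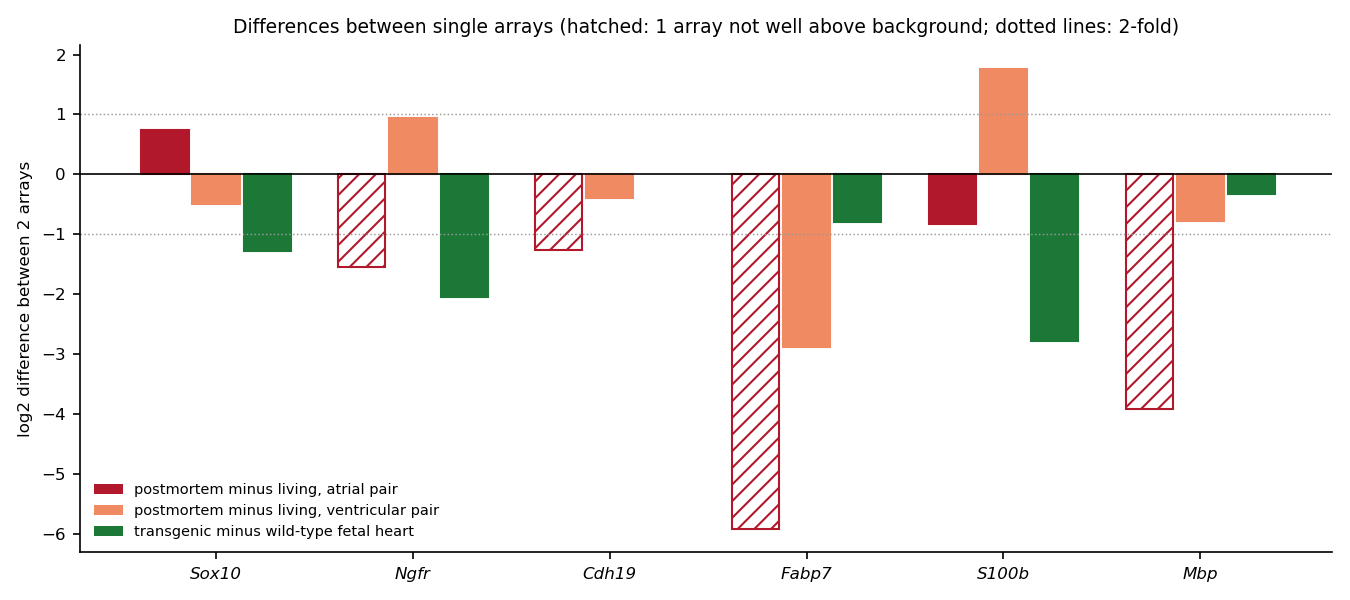
Differences between single arrays for the 6 members measured in cultures (y axis: log2 difference; bars are the atrial pair and the ventricular pair of postmortem minus living CMPs, and transgenic minus wild-type fetal heart; hatched bars have 1 array not well above background, and dotted lines mark 2-fold). Fabp7 is lower in both postmortem cultures, at -5.93 and -2.88, and S100b, Ngfr and Sox10 are lower in the transgenic fetal heart, at -2.79, -2.04 and -1.29.

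Chamber of origin was compared in the same 4 cultures. None of 6 tested members was called in limma, where 0% of 18910 genes were, 1561 of them with an unadjusted p under 0.05 and 2 members among these. Fabp7 differed by 2.92 ± 0.74 between ventricular and atrial CMPs (SE, 2 arrays against 2; adjusted p = 0.405) and Cdh19 by 1.90 ± 0.50 (adjusted p = 0.423). For Cdh19 the ventricular levels, -2.46 and -2.06, lay above the atrial ones, -4.79 and -3.53. The Fabp7 levels of ventricular and atrial CMPs overlapped. Without either living array the Fabp7 difference was 4.45, and without either postmortem array 1.40. Sox10 (-0.13 ± 0.55), Ngfr (0.37 ± 0.86), S100b (-0.28 ± 1.02) and Mbp (0.67 ± 0.72) had adjusted p-values from 0.897 to 0.977.

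The 2 fetal hearts differed at these genes. S100b was 6.90-fold lower in the transgenic than in the wild-type heart, Ngfr 4.11-fold and Sox10 2.44-fold lower. Fabp7 differed by -0.80 and Mbp by -0.33 on the log2 scale. Over all genes 3.58% were at least 2-fold lower in the transgenic heart and 4.16% at least 2-fold higher. Other neural crest genes were also measured more often in the wild-type heart: 16 of 16 listed genes were well above background there and 10 of 16 in the transgenic heart, beside 52.5% and 49.4% of all probes. The 6 that were not are Foxd3 and Tfap2b, early neural crest factors, Pax3, Sox8, Sox2 and Dlx2. Their wild-type and transgenic levels were -4.14 and -6.29 (Foxd3), -2.69 and -4.42 (Tfap2b) and -3.70 and -4.13 (Pax3). The others stood at -3.70 and -5.94 (Sox8), -1.36 and -6.25 (Sox2) and -4.29 and -6.37 (Dlx2). The transgenic array was dimmer, with a 75th percentile of 256 against 406 intensity units, so counts of flagged genes depend in part on the array. Of 15 neuronal markers 13 were well above background in the wild-type and 9 in the transgenic heart. Some lists had no gap: 5 of the 8 members, 17 of 24 other Schwann cell genes and 10 of 12 neuregulin genes were well above background in each fetal heart. Others had a smaller one: in the wild-type and the transgenic heart, 13 and 11 of 14 neurotrophin genes were well above background. The counts were 6 and 4 for 9 other genes of the Fabp family, and 5 and 4 for 8 markers of central glia. The part of dissection, litter or genotype in these values was not tested, and the 2 arrays cannot tell them apart.

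The other Schwann cell genes were taken from a list of 24, ordered by myelin proteins, factors and surface molecules. Against fetal heart 2 of 17 tested were called higher and 8 lower in CMPs, with a median difference of -1.33, beside 22.8% higher and 25.2% lower over all genes tested. The myelin protein gene Pmp22, which fibroblasts also use, rose by 2.22 ± 0.15 (limma adjusted p = 3.42e-04), and Egr2, the factor that drives myelination and is also a serum-response gene, by 2.17 ± 0.34. The growth cone protein gene Gap43 fell by 4.37 ± 0.26, the Schwann cell ligand gene Dhh by 2.87 ± 0.67, the lipid raft protein gene Mal by 2.64 ± 0.34 and Art3 by 2.46 ± 0.62. Against adult heart 7 of 19 were called higher and 6 lower, median -0.10, beside 24.6% higher and 24.6% lower over all genes tested. There Ncam1, an adhesion molecule of non-myelinating Schwann cells, rose by 2.38 ± 0.20 and the periaxin gene Prx by 2.16 ± 0.49, and the dystrophin-related Drp2 was at least 8.56-fold and Gap43 at least 3.36-fold higher. Art3 fell by 7.13 ± 0.80, the receptor gene Gfra3 by 5.43 ± 1.10 and Mal by 5.20 ± 0.44, and Pllp was at least 8.50-fold lower. Gfra3 was well above background on 2 of the 4 CMP arrays and Mal on 3, so the sizes of their differences from either heart rest in part on dim signals.

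Between the hearts 6 of 19 tested Schwann cell genes were called higher in the adult and 4 lower, median 0.36. Over all genes tested 18.8% were called higher and 18.2% lower in the adult. The sodium channel gene Scn7a was at least 7.72-fold and Pllp at least 9.48-fold higher in the adult heart, and Art3 and Mal were called higher by 4.67 ± 0.88 and 2.56 ± 0.48 (limma adjusted p = 0.0126 for each). Gap43 was at least 69.5-fold lower, Ncam1 fell by 3.79 ± 0.22, Gpr126, a receptor required for myelination, by 3.41 ± 0.44 and Prx by 2.06 ± 0.54. None of the list was called between postmortem and living CMPs (18 tested) or between chambers (17 tested). The differences there of largest size were -2.23 ± 0.43 for Scn7a (adjusted p = 0.236) and -2.09 ± 0.39 for Mal (adjusted p = 0.239). Scn7a stood at -4.67, not well above background, in postmortem atrial, -2.20 in postmortem ventricular, -1.84 in living atrial and -0.59 in living ventricular CMPs, the same order of the 4 cultures as for Fabp7.

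Of 16 neural crest genes, 12 were tested against fetal heart, 4 called higher and 1 lower in CMPs, with a median of 0.71. The homeobox gene Dlx2 rose by 3.90 ± 0.71, the paired-box factor Pax3 by 2.61 ± 0.49, Sox9 by 1.81 ± 0.36 and Twist1 by 0.96 ± 0.23, and the filament gene Nes fell by 2.27 ± 0.14 (limma adjusted p = 2.86e-04). Dlx2 and Pax3 were well above background in only the wild-type of the 2 fetal hearts, so the sizes of their differences rest in part on a dim signal. Against adult heart 5 of 11 were called higher and 2 lower, median 0.81: Sox9 rose by 3.67 ± 0.46, Twist1 by 3.59 ± 0.30 and Snai2, a factor of epithelial to mesenchymal transition, by 3.40 ± 0.83, and Dlx2 was at least 3.94-fold higher. Sox5 fell by 0.67 ± 0.20 and Nes by 0.62 ± 0.18. Sox9, Twist1 and Snai2 are also genes of mesenchyme and cartilage. Early crest and glial factors differed in where they were measured: Pax3 was well above background on all 4 CMP arrays, Tfap2a in postmortem atrial CMPs and both fetal hearts, and Foxd3, Tfap2b, Sox8 and Sox2 in the wild-type fetal heart alone. The levels of Foxd3 and Sox8 were nonetheless higher in adult heart (-3.92 and -3.30) than in wild-type fetal heart (-4.14 and -3.70). The adult array was the dimmer of the pair, with a 75th percentile of 217 against 406 intensity units. In adult against fetal heart 4 of 10 were called lower and none higher: Twist1, Sox9, Nes and Msx2 fell by 2.63, 1.86, 1.65 and 1.51. None was called between the cultures, where Dlx2 (1.34 ± 0.81, adjusted p = 0.611, for storage) and Pax3 (2.67 ± 0.56, adjusted p = 0.291, for chamber) differed most. Beside these counts, 48% of all genes tested were called against fetal heart, 49.3% against adult heart and 37% between the hearts.

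The neuregulin list holds neuregulins and receptors of the Erbb3 family. It also holds Btc, Hbegf, Adam17, Bace1 and Errfi1, which are neither neuregulins nor receptors. Nrg1, the ligand that drives Schwann cell precursors, was measured on every array, at 4.77 in postmortem atrial, 2.44 in postmortem ventricular, 2.50 in living atrial and 0.97 in living ventricular CMPs, -0.08 in adult heart, 0.29 in wild-type and 1.18 in transgenic fetal heart. It rose by 1.94 ± 0.31 against fetal heart (limma adjusted p = 0.00494) and by 2.75 ± 0.40 against adult heart (adjusted p = 0.00378), though the living ventricular array lay below the transgenic fetal heart. Its differences of 1.87 ± 0.36 for storage (adjusted p = 0.234) and -1.93 ± 0.36 for chamber (adjusted p = 0.241) were the largest of the list and did not pass. Erbb4, the neuregulin receptor of heart muscle, was not well above background in any culture and at least 32.1-fold lower than in fetal and 20.6-fold lower than in adult heart. Erbb2, the co-receptor without a ligand of its own, was measured in every sample; it fell by 1.36 ± 0.24 against fetal heart and rose by 1.80 ± 0.31 against adult heart. Egfr, a related receptor, rose by 3.40 ± 0.51 against fetal and 3.62 ± 0.65 against adult heart. Altogether 5 of 10 tested genes of the list were called higher and 4 lower against fetal heart, and 4 of 9 higher and 3 lower against adult heart. Adult against fetal heart gave 3 higher and 2 lower of 10. Of all genes tested 48% were called against fetal heart, 49.3% against adult heart and 37% between the hearts.

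The neurotrophin list holds the ligands and partners of Ngfr. Bdnf, brain-derived neurotrophic factor, was at 2.64 to 3.47 in the 4 CMPs, -0.62 in adult and -3.28 and -2.55 in fetal hearts, and no CMP array overlapped the hearts. It rose by 6.03 ± 0.31 against fetal heart (limma adjusted p = 1.91e-04) and by 3.74 ± 0.40 against adult heart (adjusted p = 0.00146). Ntf3, neurotrophin 3, fell by 5.85 ± 1.16 against fetal heart and by 5.16 against adult heart (adjusted p = 0.0347), and was well above background on 1 CMP array, the postmortem atrial (-0.49). Sort1, the sortilin receptor that pairs with Ngfr, fell by 3.57 ± 0.24 against fetal and by 2.99 ± 0.31 against adult heart. Over all genes tested 48% were called against fetal heart, 49.3% against adult heart and 37% between the hearts. Of 12 tested genes of the list 4 were called higher and 4 lower against fetal heart. The counts were 6 higher and 3 lower against adult heart, and 2 higher and 5 lower in adult against fetal heart. None was called for storage, where Lingo1 differed most (1.37 ± 0.41, adjusted p = 0.351), or chamber, where Rtn4r did (1.63 ± 0.78, adjusted p = 0.67). All the named genes of these 4 lists kept their direction under each of 4 other settings of background or scaling.

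Markers of other cells were summed for each array, as signals relative to the 75th percentile. A sum leans on the genes with the brightest probes, so it does not give the share of a cell type. The 15 neuronal markers summed to 60.4 to 78.5 in CMPs and 14.7 to 52.8 in hearts; of their defining genes Tubb3, also a gene of cultured fibroblasts, was well above background on all 7 arrays, and Prph only in wild-type fetal heart. The 6 melanocyte markers summed to 2.27 to 3.56 in CMPs and 7.32 to 28.7 in hearts. Tyr was measured on all 7 arrays, Dct in the 3 hearts and Tyrp1 on none. The 8 markers of central glia summed to 4.36 to 19.5 in CMPs and 2.58 to 3.39 in hearts, with Olig2 well above background on no array and Aqp4 and Mog on all 7. Most of that sum in CMPs was Aldh1l1, named after its values were seen (1.82 to 4.16 in CMPs and -0.96 to 0.40 in hearts), while Aqp4 was lower in every culture than in every heart. The 6 fat cell markers, whose cells can make S100b, summed to 0.78 to 5.21 in CMPs and 0.72 to 6.62 in hearts, and Adipoq, Plin1 and Cidec were measured on 2, 1 and 1 of the 7 arrays. Fibroblast markers summed to 1569 to 2090 in CMPs and 432 to 587 in hearts, endothelial markers to 9.76 to 18.2 and 30.4 to 43.2, and macrophage markers to 47.5 to 70.5 and 28.1 to 104. Most of the macrophage sum in CMPs was Itgam, named after its values were seen (5.44 to 6.01 in CMPs and 2.94 to 5.44 in hearts). Csf1r was lower in every culture than in every heart, and Emr1 was measured in the 3 hearts alone. Of 6 tested macrophage markers 5 were called lower and none higher against adult heart, and 3 lower and 1 higher against fetal heart. Over all genes tested 24.6% were called lower against adult heart and 25.2% against fetal heart. The postmortem atrial array, where Fabp7, Ngfr, Cdh19 and Mbp were lowest among the cultures, had the highest pericyte sum (50.8, against 32.1 to 36.4 in the other CMPs) and the lowest endothelial sum (9.76). Epicardial markers summed to 28.7 to 100 in CMPs, to 46.5 in wild-type and 53.6 in transgenic fetal heart, and to less in adult heart than in any CMP. Most of that sum in CMPs was Aldh1a2, named after its values were seen (4.71 to 6.62 in CMPs and 1.52 to 3.51 in hearts). Upk3b, Msln and Wt1 were lower in every culture than in every heart, with Wt1 well above background in the 3 hearts alone. The part of these cell types in the levels of the 8 genes was not tested.

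Other genes of the Fabp family, named after their values were seen, ordered the cultures differently from Fabp7. Fabp3, the heart isoform, was at -1.74 to 2.83 in CMPs and at 6.92 or more in hearts, Fabp4 at 2.02 to 3.11 and 3.61 to 7.21, and Fabp5 at 5.98 to 6.52 and 5.06 to 7.80. In Fabp3, Fabp4 and Fabp5 the postmortem atrial array was the highest of the 4 cultures, where Fabp7 was lowest. Pmp2, the family member of peripheral myelin, was well above background on no array. Of the family 5 genes were tested against fetal heart, 4 of them called lower and none higher in CMPs, beside 25.2% lower and 22.8% higher over all genes tested.

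For each of the 5 members measured on at least 4 arrays, the 3 genes of most similar profile were sought among 13149, as the smallest root mean square difference of centred log2 levels over the 7 arrays. They describe 7 arrays, with no test. Fabp7 lay nearest to Mfap4 (0.60), Gdnf (0.72), a growth factor that Schwann cells also make, and Gzme (0.82), while its own SD over the 7 arrays was 2.36. Ngfr lay nearest to Cgn (0.21), Sncaip (0.39) and Col9a2 (0.45), with an SD of 2.23. S100b lay nearest to Abcb1b (0.66), Fbxw10 (0.69) and Matn2 (0.71), with an SD of 2.10. Mbp on its brightest probe lay nearest to Smtnl2 (0.38), Ldb2 (0.48) and Igfbp5 (0.55), with an SD of 2.56, and Sox10 to Rgs2 (0.26), Apba2 (0.26) and Rnft2 (0.27), with an SD of 0.87. No member was among the 3 nearest genes of another.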

How the data were processed

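Per array, the deposited scanner table gives linear spot intensity. Log2 values of the same arrays come in a series table that the authors deposited. Images were read with Feature Extraction, whose version is 10.7.3.1 by the file headers and 9.5.3 by the submitters' processing notes, and the processed signal was background-subtracted and detrended, per the file headers. Each column of the deposited log2 table differed from the log2 processed signal by 1 constant per array, within 0.001 for at least 99.99% of probes, so its direction and lack of centring across arrays are known.

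From these, log2 processed signals were averaged over unflagged spots of a probe and scaled to each array's 75th percentile (217 to 406 intensity units). A gene was its probe of highest mean. No spot was saturated, and 11 probes with an outlier flag on every spot of an array were left out. The 7 arrays limit the precision. The test was limma (3.58.1, under R 4.3.3; lmFit and eBayes with a trend) on all 7 arrays with 4 groups and CMP chamber as terms, which left 2 residual degrees of freedom, and adjusted by Benjamini-Hochberg over all genes tested. Genes entered a test if all arrays of 1 side or both were well above background. Genes of other lists were named where they passed, at most 4 in each direction per list and comparison, or else the largest difference; of marker lists only the first 3 genes. The 6 neural crest genes by detection, the Fabp family, Aldh1l1, Itgam, Aldh1a2 and Tnnt2 fall outside that rule and were named after their values were seen. The alternatives covered background correction, scaling, filters, the prior, the choice of probes, the terms and each array left out. The members, lists and rules were chosen with earlier results of these data known. Some genes of the lists are counted but not reported by name here.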

Additional observations from a re-analysis of the deposited data

Results flagged for a closer look

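In 3 members the storage difference, postmortem minus living, ran opposite ways in the atrial and ventricular pairs of cultures, with 1 array per side. It was 0.73 and -0.49 for Sox10, -1.54 and 0.94 for Ngfr and -0.83 and 1.77 for S100b, in that order. The difference between the pairs was not tested. Among the 4 cultures no array stood apart by Dixon's test in Sox10, Ngfr, Cdh19, Fabp7, S100b or Mbp. With only 4 values, each of another storage and chamber, the test cannot show that an array is like the others. The postmortem atrial signals of Ngfr, Cdh19, Fabp7 and Mbp on its brightest probe were not well above background, so the size of their gap is uncertain.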

How the results depend on the processing

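Without any 1 culture the error rests on the 2 fetal hearts, and a lone array is assumed to vary as they do, so more calls there do not show firmer differences. Members called between postmortem and living CMPs numbered 1 with normexp. Without any 1 CMP array the storage and the chamber difference rest on 1 pair of arrays, so calls there are not counted. Against fetal heart 1 was called with the stricter filter, which leaves Ngfr and Mbp untested, and 2 to 5 with an array left out. Against adult heart 2 were called with normexp and 1 to 5 with an array left out, and in adult against fetal heart 1 with normexp and 0 to 4. Reversed directions were Sox10 for storage with normexp (-0.0503) and Mbp for chamber with normexp (-0.0309). With an array left out, the storage difference ranged from -0.49 to 0.73 for Sox10, -1.54 to 0.94 for Ngfr and -0.83 to 1.77 for S100b, and the chamber difference from -0.74 to 0.49 for Sox10, -0.87 to 1.61 for Ngfr, -1.58 to 1.01 for S100b and -0.90 to 2.24 for Mbp. The cause was not tested. No other member difference changed direction under a setting that kept all 7 arrays. Of all genes tested, those called for storage ranged from 0% to 0.247% over settings with all arrays, and those for chamber from 0% to 0.0719%. With an array left out they were 37.5% to 45.6% against fetal heart, 47.6% to 51.3% against adult heart and 28.6% to 41.9% between the hearts. Without a filter 27.4% were called against fetal heart, 28.3% against adult heart and 20.9% between the hearts, of a larger number of genes. The labels give no replicate numbers. Chamber pairs the cultures and is a term of the fit, and without that term 0 members were called for storage, as with it.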
